A study of Mus musculus with 3 samples.

Results

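The genes described here are stathmin 1 (Stmn1) and 7 tubulin genes, the alpha tubulins Tuba1a, Tuba1b and Tuba1c and the beta tubulins Tubb2a, Tubb4b, Tubb5 and Tubb6. They are 8 of the 27998 genes counted in single YFP (+) cells of the mouse lumbar spinal cord. The members were chosen from levels measured in the same 3 libraries, including cells in which no transcript of Mki67, Top2a or Cdk1 was found, so the differences between libraries given here are descriptions and carry no test.

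The cells came from Cx3cr1-creER-yfp/+ heterozygous mice of strain C57BL/6, either naive or taken 24 h or 48 h after transection and ligation of the sciatic nerve. In these mice Cre-ER and YFP are driven by the Cx3cr1 locus, which is active in microglia and also in circulating monocytes, and 1 copy of Cx3cr1 is replaced in every group. Lumbar cords of 3 animals were pooled per group, the meninges were removed, and YFP (+) cells were sorted after doublet exclusion. Each group is thus 1 library of pooled animals. A number after each of the 7522 barcodes (1, 2 or 3) gives the library. As no label joins a number to a group, values are given for libraries 1, 2 and 3 of unknown time point.

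Microtubules are hollow polymers of paired alpha and beta tubulin that grow and shrink at their ends, carry transport through the cell and form the spindle at mitosis. Several genes, called isotypes, encode each kind of tubulin, and their proteins differ mostly in the last residues. Stathmin binds free tubulin pairs and favours the shrinking of microtubules, is switched off by phosphorylation at mitosis, and is abundant in proliferating cells and in developing neurons. Microglia, the resident macrophages of the spinal cord, rearrange microtubules when they move, take up debris or divide.

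The unique molecular identifier (UMI) counts each captured transcript once at its 3′ end, so UMIs were not divided by gene length. Library 1 stood apart in depth, as its 609 cells had a median of 2218 UMIs, against 5952 for the 3591 cells of library 2 and 5742 for the 3322 of library 3. Each cell was therefore thinned at random to 2000 UMIs. Shallower cells were left out, 201 in library 1, 22 in library 2 and 38 in library 3. Library 2 stood apart in its proliferation transcripts. Mki67, a nuclear protein of proliferating cells, was found at full depth in 0.164%, 35.1% and 0.692% of the cells of libraries 1, 2 and 3. Top2a, which untangles DNA at replication and mitosis, was found in 0.328%, 53.7% and 2.38%, and Cdk1, the kinase that starts mitosis, in 0.985%, 21.2% and 2.17%. After thinning, Mki67 was found in 0.245%, 13.5% and 0.244% of cells and Top2a in 0.245%, 25.9% and 0.974%. Cdk1 was then found in 0.735%, 7.09% and 0.487%. At full depth the absence of these transcripts says less in the shallower cells of library 1. Cells without a UMI of any of these 3 genes numbered 602 (98.9%), 1062 (29.6%) and 3164 (95.2%), of which 403, 1050 and 3126 had at least 2000 UMIs. The 10 microglia markers summed to 27560, 23932 and 26351 UMIs per 1000000 (CPM) in these cells, and all 10 were found in each library. Between libraries, 25 barcodes occurred more than once, 19 of them in libraries 2 and 3. All intervals in parentheses are exact 95% intervals (Poisson for mean UMIs and CPM, Clopper-Pearson for shares, conditional binomial for ratios) and describe the error of counting alone, since animals were pooled.

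Stmn1 was high in library 2 and low in the other two libraries, also among cells without the 3 proliferation genes. The gene lies at chr4:134468320-134473843 on the plus strand (GRCm38, GENCODE M21), and its main transcript has 5 exons and encodes 149 amino acids. Over all cells its mean level was 1.14 UMIs per cell in the 3569 cells of library 2 (1.11 to 1.18), against 0.0809 in the 408 cells of library 1 (0.0557 to 0.114) and 0.127 in the 3284 of library 3 (0.115 to 0.140). Without the 3 proliferation genes the levels were 0.0695 (0.0462 to 0.1004, 403 cells), 0.949 (0.891 to 1.01, 1050 cells) and 0.119 (0.107 to 0.132, 3126 cells). Leaving out the cells with those genes thus lowered the mean beyond counting error in library 2 alone, and library 2 remained the high one. The intervals before and after overlapped in libraries 1 and 3. In library 1 the change came from 5 cells with 5 Stmn1 UMIs, 4 of them in 1 cell. A Stmn1 UMI was found in 5.96% (3.85 to 8.73), 60.9% (57.8 to 63.8) and 11.1% (10.1 to 12.3) of the cells without the 3 genes, and at least 2 UMIs in 0.744%, 24.6% and 0.704%.

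In those cells the level in library 2 was 13.7 times that in library 1 (9.39 to 20.7) and 7.95 times that in library 3 (7.05 to 8.98), and the level in library 3 was 1.72 times that in library 1 (1.17 to 2.62). The ratio of library 2 to library 3 fell below this interval without thinning and with another seed, as given in the last section. Of the 3410 genes that reached 50 CPM in library 2 or 3, 4 had a larger ratio of library 2 to library 3 than Stmn1, namely Birc5, Tk1, 2810417H13Rik and Spc24. These 4 genes lay below 50 CPM in library 3 and were counted only through library 2. Stmn1 was chosen from these same levels, so its rank is a description and no result about it. Birc5 is a spindle-checkpoint and survival protein, Tk1 makes thymidine nucleotides for replication and Spc24 belongs to the kinetochore. In cells of 2000 to 4000 UMIs, which narrows the gap in depth (medians 2481, 3383 and 3482 before thinning), Stmn1 measured 0.827 in 179 cells of library 2, against 0.0658 in 395 cells of library 1 and 0.118 in 365 of library 3.

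**Figure D1:**
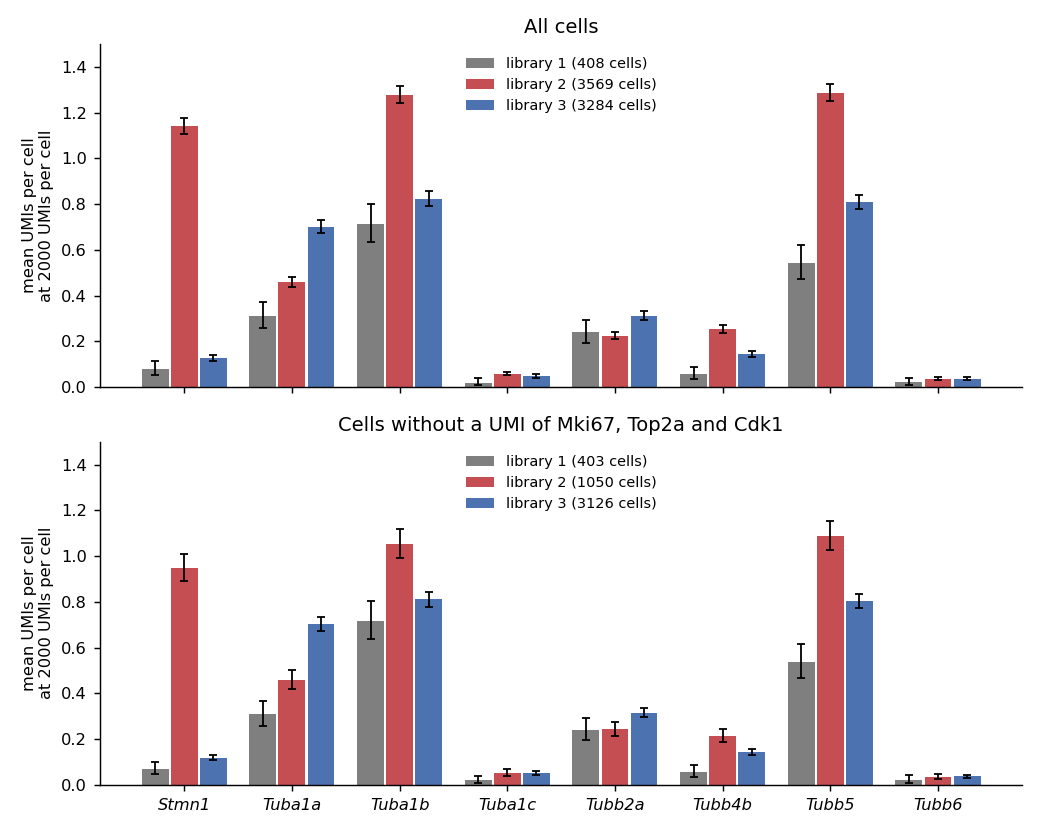
Mean UMIs per cell (y axis, linear, after thinning to 2000 UMIs per cell) of the 8 genes (x axis) in libraries 1, 2 and 3, over all cells (top) and over cells without a UMI of Mki67, Top2a and Cdk1 (bottom). Bars are means and error bars exact 95% Poisson intervals. In the lower panel Stmn1 reached 0.949 in library 2 against 0.0695 and 0.119 in libraries 1 and 3, while Tuba1a was highest in library 3 at 0.704.

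Stmn1 was spread over the cells of library 2 and was not held by a few of them. Among the 1050 cells without the 3 genes, 39.1% had no Stmn1 UMI and 36.3% had exactly 1, where a Poisson distribution of the same mean holds 38.7% and 36.7%. The variance of the UMIs per cell was 1.04 times their mean, and the highest cell had 7 UMIs. In library 3 the ratio of variance to mean was 1.03 with at most 3 UMIs in a cell, and in library 1 it was 1.29. Over all cells of library 2 it rose to 1.18, with up to 8 UMIs in a cell. At 2000 UMIs per cell, the spread of Stmn1 over the cells of library 2 without the 3 genes was thus close to that of counting alone. Thinning itself brings counts nearer to a Poisson distribution, and the ratio of variance to mean at full depth is not given here. A wider spread between cells at full depth is therefore not excluded. The means of libraries 1 and 3 (0.0695 and 0.119) were too low for this ratio to show the spread there. RNA released from other cells can give such evenly spread UMIs in droplet libraries. No other cell type was present in number to read that background from, and its part in these levels was not tested. The 20 genes of a mitosis list, which holds the 3 proliferation genes, still summed to 0.834 UMIs per cell in these cells of library 2, against 0.0273 in library 1 and 0.0218 in library 3. A list of 20 replication genes summed to 1.59, 0.541 and 0.885. In these cells of library 2 the variance was 1.002 times the mean for the mitosis sum, with a UMI in 57.4% of cells, and 1.20 for the replication sum. It was 1.01 for Tuba1b and 0.975 for Tubb5, so an even spread was not particular to Stmn1.

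**Figure D2:**
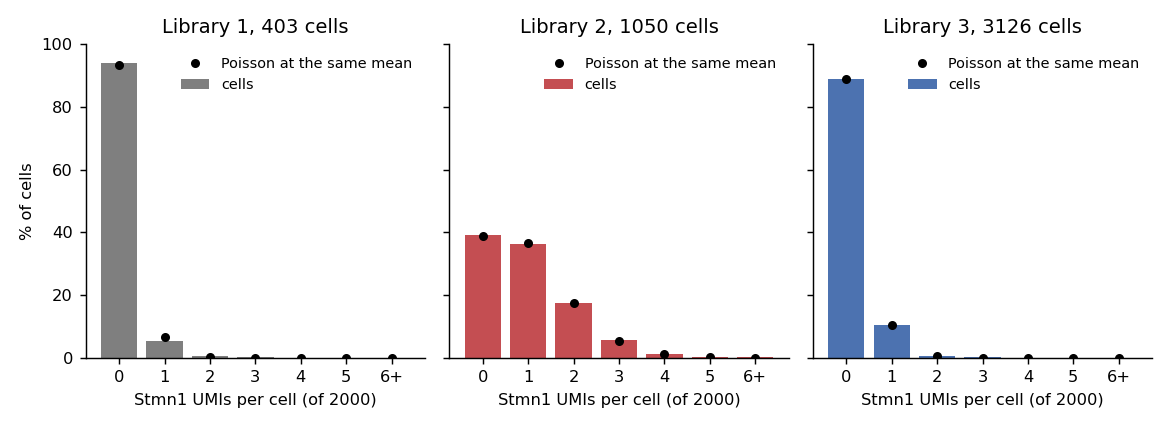
Share of cells (y axis, percent) by the number of Stmn1 UMIs among 2000 (x axis) in cells without Mki67, Top2a and Cdk1, 1 panel per library. Bars are the cells and black points a Poisson distribution with the same mean. In library 2, 39.1% of 1050 cells had none, against 94.0% of 403 cells in library 1 and 88.9% of 3126 in library 3.

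The absence of 3 transcripts does not make a cell free of proliferation transcripts, so stricter choices were read as well. Library 2 held 140 thinned cells with no UMI of any of the 20 mitosis genes at full depth, and their Stmn1 level was 0.900 (0.750 to 1.07), with a UMI in 59.3% of them. The level was 0.0692 (0.0456 to 0.101) in 390 such cells of library 1 and 0.119 (0.107 to 0.133) in 2923 of library 3. Without any of the 40 mitosis and replication genes, only 9 cells remained in library 2, and 7 Stmn1 UMIs were counted in them (0.778, 0.313 to 1.60). The levels were 0.0708 (0.0396 to 0.117) in 212 such cells of library 1 and 0.116 (0.0839 to 0.156) in 371 of library 3. The interval of the 9 cells lay above those of the other libraries, and it covers counting error alone. At full depth 57.3%, 0.251% and 11.6% of all cells of libraries 1, 2 and 3 held none of the 40 genes. Depth differed between the libraries, so these sets of cells are not alike. The part of RNA released from other cells was not tested here either.

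Within library 2, Stmn1 was highest in cells with many mitosis UMIs. By 0, 1 to 3, 4 to 9 and 10 or more UMIs of the mitosis list at full depth (140, 1559, 1334 and 536 cells), its level was 0.900 (0.750 to 1.07), 0.944 (0.896 to 0.993), 1.08 (1.02 to 1.14) and 1.93 (1.82 to 2.05). By UMIs of the replication list it was 0.863 (0.663 to 1.10), 0.913 (0.858 to 0.971), 1.02 (0.973 to 1.07) and 1.71 (1.62 to 1.81). The 2 lowest classes of either list overlapped in their intervals, and the highest class stood clear of the others. In library 3 the replication classes gave 0.116, 0.109, 0.145 and 0.364 (0.255 to 0.503 in the 99 cells of the highest class). The level of even those 99 cells lay below the 0.863 of the cells without replication UMIs in library 2. Before thinning, cells of library 2 with the 3 proliferation genes were also deeper (median 6495 UMIs) than those without (5189.5). Read after thinning, the replication classes of library 3 with 0, 1 to 3 and 4 to 9 UMIs gave 0.108, 0.138 and 0.225. The interval of the 71 cells in the last (0.129 to 0.366) overlapped that of the class before it (0.122 to 0.156). The step to the highest class in library 3 was thus not clear of counting error at equal depth. Mitosis classes of library 2 read at equal depth are given with the tubulins.

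The alpha tubulins Tuba1a, Tuba1b and Tuba1c lie close together on chromosome 15, at chr15:98949837-98953703 and chr15:98931425-98934565 on the minus strand and chr15:99029891-99038110 on the plus strand (GRCm38). Their coding sequences are 97.1% to 98.3% identical in pairs, against 80.2% to 84.5% between the 4 beta tubulins. Of 41 windows of 91 bases along the last 500 bases of the main transcript, 21 of Tuba1a, 19 of Tuba1b and 27 of Tuba1c occur exactly in a transcript of another member. The split of reads between the 3 alpha genes is uncertain to that extent.

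Tuba1a, the alpha isotype best known from developing neurons, was highest in library 3. Over all cells of libraries 1, 2 and 3 its levels were 0.311 (0.260 to 0.370), 0.458 (0.436 to 0.481) and 0.702 (0.673 to 0.731). Without the proliferation genes it was 0.308 (0.256 to 0.367), 0.460 (0.420 to 0.503) and 0.704 (0.675 to 0.734). The order of the libraries was thus the same in both sets of cells and differed from that of Stmn1. Without the proliferation genes the level in library 3 was 2.29 times that in library 1 (1.91 to 2.76) and 1.53 times that in library 2 (1.39 to 1.69). In cells of 2000 to 4000 UMIs, Tuba1a measured 0.306, 0.335 and 0.562, and the intervals of libraries 1 and 2 overlapped (0.254 to 0.366 and 0.256 to 0.431).

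Tuba1b, an alpha isotype found in most tissues, was highest in library 2. Its levels over all cells were 0.713 (0.634 to 0.800), 1.28 (1.24 to 1.32) and 0.824 (0.793 to 0.856). Without the proliferation genes they were 0.717 (0.637 to 0.805), 1.05 (0.993 to 1.12) and 0.810 (0.779 to 0.843). The ratio of library 2 to library 3 was 1.55 (1.48 to 1.63) in all cells and 1.30 (1.21 to 1.40) without those genes. Libraries 1 and 3 were at the edge of counting error, with a ratio of 1.13 (1.00008 to 1.28) in cells without the proliferation genes.

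Tuba1c, the least counted of the 3 alpha genes, was close to the limit of detection, with 8, 55 and 159 UMIs in the cells without the 3 genes (0.0199, 0.0524 and 0.0509 per cell). It was 2.64 times higher in library 2 (1.25 to 6.42) and 2.56 times higher in library 3 (1.27 to 6.04) than in library 1, and libraries 2 and 3 did not differ beyond counting error (1.03, 0.744 to 1.41).

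The sum of the 3 alpha genes hid these opposite orders. In cells without the 3 proliferation genes it was 1.04 (0.947 to 1.15), 1.57 (1.49 to 1.64) and 1.56 (1.52 to 1.61), with a ratio of library 2 to library 3 of 1.001 (0.946 to 1.06). The makeup of the sum was what differed. Tuba1a gave 44.8% (43.4 to 46.2) of all alpha tubulin UMIs in library 3, against 29.4% (25.1 to 34.0) and 29.3% (27.1 to 31.5) in libraries 1 and 2. Tuba1b gave 68.5%, 67.1% and 51.5% in libraries 1, 2 and 3. Over all cells Tuba1a gave 29.7%, 25.4% and 44.3%, so the larger part of Tuba1a in library 3 did not rest on the choice of cells. How well the 3′ end of each gene is captured was not measured, so a share is one of UMIs, not of protein.

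Tubulin transcripts carry at their start the codons for methionine, arginine, glutamate and then isoleucine or cysteine. When free tubulin is in excess, the factor TTC5 recognizes this stretch on the ribosome and the transcript is degraded. The first 30 coding bases of the main transcript (GENCODE M21, 5′ to 3′) follow for the tubulins on chromosomes 2, 13, 15 and 17. The 12 bases of these codons are in capitals.
Tuba1a: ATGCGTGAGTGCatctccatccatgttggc
Tuba1b: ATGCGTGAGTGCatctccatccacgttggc
Tuba1c: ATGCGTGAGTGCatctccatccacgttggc
Tubb2a: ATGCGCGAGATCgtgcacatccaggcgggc
Tubb4b: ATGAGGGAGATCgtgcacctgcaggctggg
Tubb5: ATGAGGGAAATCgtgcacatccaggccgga
The 3 alpha genes have the same 12 bases, and the 3 beta genes shown each have their own. Ttc5 itself measured 59.6, 34.3 and 31.2 CPM in the cells without the proliferation genes of libraries 1, 2 and 3.

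The beta tubulins were led by Tubb5, the isotype of most dividing and immune cells. It lies at chr17:35833921-35838306 on the minus strand. Its levels over all cells were 0.544 (0.475 to 0.621), 1.29 (1.25 to 1.33) and 0.809 (0.778 to 0.840). Without the proliferation genes it was 0.538 (0.469 to 0.615), 1.09 (1.03 to 1.15) and 0.803 (0.772 to 0.835). The 3 libraries stood apart in both sets of cells, with library 2 highest and library 1 lowest. The ratio of library 2 to library 1 without those genes was 2.02 (1.75 to 2.35) and that to library 3 was 1.35 (1.26 to 1.45).

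Tubb4b, a beta isotype of many tissues that is abundant in cilia, lies at chr2:25222160-25224702 on the minus strand. Its levels over all cells were 0.0588 (0.0377 to 0.0875), 0.254 (0.238 to 0.272) and 0.144 (0.131 to 0.157). Without the proliferation genes they were 0.0571 (0.0362 to 0.0856), 0.212 (0.185 to 0.242) and 0.145 (0.132 to 0.159). The order was that of Tubb5, with a wider gap to library 1, where 23 UMIs were counted. There the ratio to library 1 was 3.72 (2.42 to 5.99) for library 2 and 2.54 (1.67 to 4.05) for library 3. At 2000 to 4000 UMIs per cell the levels were 0.0557, 0.145 and 0.118, and the intervals of libraries 2 and 3 overlapped (0.0949 to 0.213 and 0.0853 to 0.159).

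Tubb2a, a beta isotype best known from neurons, was highest in library 3. It lies at chr13:34074274-34078007 on the minus strand. Its levels over all cells were 0.240 (0.195 to 0.293), 0.226 (0.211 to 0.242) and 0.312 (0.293 to 0.332). Without the proliferation genes they were 0.241 (0.195 to 0.294), 0.243 (0.214 to 0.275) and 0.315 (0.295 to 0.335). Libraries 1 and 2 did not differ beyond counting error, and library 3 was 1.30 times library 2 (1.13 to 1.49). Of its 41 end windows, 11 also occur in Tubb2b, its close copy, which measured 39.7, 61.9 and 66.4 CPM in the same cells. In cells of 2000 to 4000 UMIs without the proliferation genes, Tubb2a measured 0.238 (0.192 to 0.291), 0.173 (0.118 to 0.246) and 0.249 (0.201 to 0.306). All of these intervals overlapped.

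Tubb6, on chromosome 18, was found in few cells. It had 9, 36 and 116 UMIs in the cells without the 3 genes (0.0223, 0.0343 and 0.0371 per cell), and no pair of libraries differed beyond counting error.

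As a share of all beta tubulin UMIs over all cells, Tubb5 gave 57.7% (52.6 to 62.7), 67.0% (65.9 to 68.1) and 56.4% (55.0 to 57.8). Tubb2a gave 25.5% (21.2 to 30.1), 11.8% (11.0 to 12.5) and 21.7% (20.6 to 22.9), and Tubb4b 6.23% (4.03 to 9.13), 13.2% (12.4 to 14.1) and 10.0% (9.18 to 10.9). Library 2 thus had more Tubb5 and less Tubb2a in its beta pool than either of the others. In its cells without the proliferation genes the shift was smaller, with 63.9% (61.7 to 66.2) for Tubb5 and 14.3% (12.7 to 16.0) for Tubb2a. Other beta tubulins, nearly all Tubb2b, gave 8.31%, 6.15% and 9.21% over all cells.

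**Figure D3:**
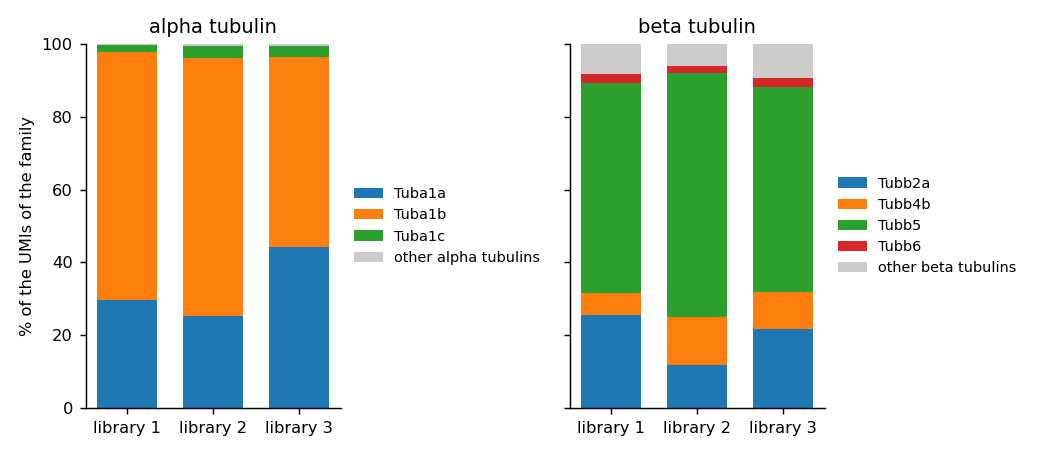
Share of alpha (left) and beta (right) tubulin UMIs (y axis, percent) by isotype in libraries 1, 2 and 3, over all cells thinned to 2000 UMIs. Tuba1a takes 44.3% of alpha tubulin UMIs in library 3 against 29.7% and 25.4% in libraries 1 and 2, and Tubb5 takes 67.0% of beta tubulin UMIs in library 2.

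The isotypes differ most at the end of the protein, in the acidic tail to which motors and modifying enzymes bind. The last 60 coding bases of the 3 more abundant beta members (GENCODE M21, 5′ to 3′, stop codon in capitals) show how far the genes with opposite orders differ there.
Tubb2a: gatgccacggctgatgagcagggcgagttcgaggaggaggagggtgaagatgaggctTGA
Tubb4b: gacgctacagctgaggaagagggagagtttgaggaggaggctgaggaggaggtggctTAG
Tubb5: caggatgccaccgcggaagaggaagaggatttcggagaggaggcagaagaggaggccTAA
Together the 7 tubulins measured 1.91 (1.78 to 2.05), 3.60 (3.54 to 3.66) and 2.88 (2.82 to 2.94) UMIs per cell in all cells, and 1.90 (1.77 to 2.04), 3.14 (3.04 to 3.25) and 2.87 (2.81 to 2.93) without the proliferation genes. The ratio of library 2 to library 3 was 1.25 (1.22 to 1.28) in all cells and 1.10 (1.05 to 1.14) without those genes.

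Against all genes, the members were counted as higher or lower where a gene of at least 50 CPM in either library differed by at least 2-fold. Tuba1c and Tubb6 did not reach 50 CPM in any library, so 6 of 8 members were counted, and the members' own direction was known when they were chosen. In cells without the proliferation genes, Stmn1, Tubb4b and Tubb5 were higher in library 2 than in library 1, where 2.72% of the 3646 genes were, and 2.99% were lower. Tuba1a and Tubb4b were higher in library 3 than in library 1, where 3.95% of 3671 genes were higher and 4.36% lower. Stmn1 alone among the members was at least 2-fold higher in library 2 than in library 3, where 0.645% of 3410 genes were higher and 2.2% lower. No member was lower by 2-fold in any of these comparisons. Stmn1 (34.7 CPM) and Tubb4b (28.5 CPM) lay below 50 CPM in library 1. Against library 1 they were thus counted only through the library where they were high and could not be called lower. Their calls there are no result about the members. In cells of 2000 to 4000 UMIs, Tuba1a was no longer past 2-fold in library 3 over library 1 (0.562 against 0.306).

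Over all cells the members called were the same, and Stmn1 and Tubb4b were again below 50 CPM in library 1 (40.4 and 29.4 CPM). There, 3.98% of 3667 genes were higher and 3.35% lower in library 2 than in library 1, 3.85% of 3691 were higher and 4.42% lower in library 3 than in library 1, and 1.09% of 3388 were higher and 2.18% lower in library 2 than in library 3. The median log2 ratio of the 6 members in cells without the proliferation genes was 0.80 for library 2 over 1, 0.68 for 3 over 1 and 0.41 for 2 over 3, against -0.05, -0.05 and 0.03 over all genes counted. The members were chosen from these same levels, and Stmn1 and Tubb4b entered against library 1 only through the higher library. These medians are therefore no result about the members as a set. Scaling by median-of-ratios factors in place of total UMIs raises each log2 ratio to library 1 by 0.13 to 0.15.

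**Figure D4:**
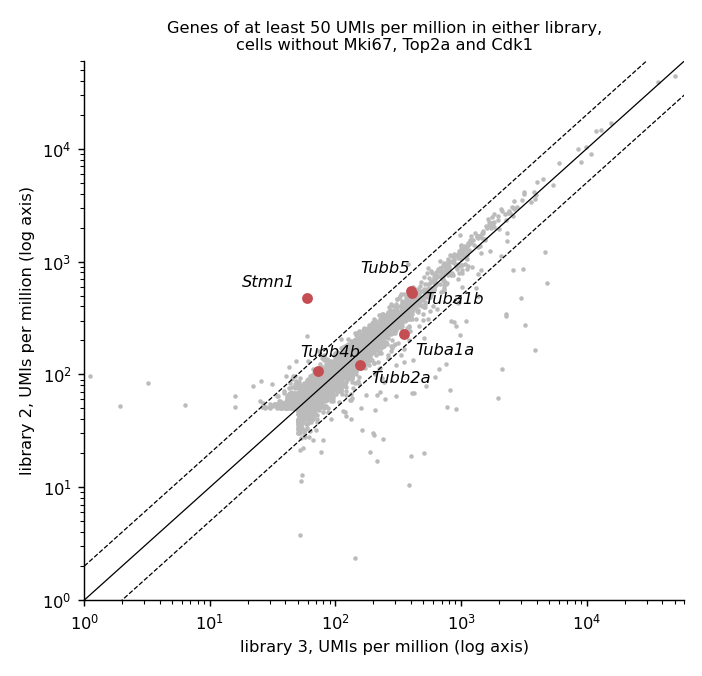
Level in library 2 (y axis, CPM, log scale) against library 3 (x axis, CPM, log scale) of the 3410 genes of at least 50 CPM in either, in cells without Mki67, Top2a and Cdk1. Each grey point is a gene, red points are the 6 members counted, the solid line marks equality and the dashed lines a 2-fold difference. Stmn1 lies above the 2-fold line, and the 5 tubulins lie between the lines, Tuba1a and Tubb2a below equality.

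Within library 2, cells with a UMI of Mki67, Top2a or Cdk1 (2519 thinned cells) had more of 4 members than the 1050 cells without. The ratio was 1.29 (1.20 to 1.38) for Stmn1, 1.30 (1.22 to 1.39) for Tuba1b, 1.28 (1.10 to 1.496) for Tubb4b and 1.26 (1.18 to 1.35) for Tubb5. For Tuba1a it was 0.994 (0.893 to 1.11), for Tubb2a 0.902 (0.777 to 1.05), for Tuba1c 1.20 (0.876 to 1.66) and for Tubb6 1.08 (0.726 to 1.63), all including 1. The 4 members that were higher in cells with the proliferation genes are also those whose interval of library 2 over library 3 lay above 1. In library 3, with 158 such cells, Stmn1 was 2.33 times higher (1.67 to 3.20) and Tuba1b 1.35 times higher (1.15 to 1.58) in cells with those genes, and the intervals of the other members included 1. No share over all genes is given for this split in either library, so the counts of members are no result about them as a set.

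By the number of mitosis UMIs, Tuba1b, Tubb5 and Tubb4b were highest in the highest class of library 2. There Tuba1b measured 1.07 (0.907 to 1.26), 1.06 (1.01 to 1.11), 1.18 (1.13 to 1.24) and 2.21 (2.09 to 2.34) in cells with 0, 1 to 3, 4 to 9 and 10 or more such UMIs. Tubb5 measured 1.02, 1.11, 1.27 and 1.90, and Tubb4b 0.193, 0.231, 0.241 and 0.373. Tuba1c, whose ratio by the 3 genes included 1, measured 0.0786 (0.0392 to 0.141), 0.0487 (0.0384 to 0.0610), 0.0435 (0.0330 to 0.0562) and 0.127 (0.0985 to 0.161), so that its highest class stood above the 2 classes before it. Tuba1a lay between 0.437 and 0.507 with overlapping intervals. Tubb2a was 0.187 (0.152 to 0.227) in the highest class and 0.239 (0.215 to 0.264) in cells with 1 to 3 such UMIs. Reading the mitosis UMIs after thinning, so that cells of every class have the same depth, left 970, 2204, 363 and 32 cells in the 4 classes. In these Stmn1 measured 0.988, 1.08, 1.81 and 2.28, Tuba1b 1.09, 1.22, 1.97 and 3.25, and Tubb5 1.18, 1.24, 1.79 and 2.31. Tuba1a measured 0.488 (0.445 to 0.534), 0.451 (0.423 to 0.480), 0.455 (0.388 to 0.529) and 0.0938 (0.0193 to 0.274), the last from 3 UMIs in 32 cells. The rise of Stmn1, Tuba1b and Tubb5 was thus also seen at equal depth, and Tuba1a was lower in the 32 cells with the most mitosis UMIs.

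In the replication classes of library 3 read at full depth, Tuba1b was 0.745, 0.790, 0.880 and 1.29, Tubb5 0.772, 0.744, 0.929 and 1.13, and Tuba1a 0.698, 0.702, 0.710 and 0.626. Read after thinning, classes of 0, 1 to 3 and 4 to 9 such UMIs gave 0.807, 0.831 and 0.972 (0.756 to 1.23) for Tuba1b. They gave 0.767, 0.833 and 1.01 (0.793 to 1.28) for Tubb5 and 0.714, 0.697 and 0.563 (0.402 to 0.767) for Tuba1a. The intervals of neighbouring classes overlapped for each of these genes after thinning.

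**Figure D5:**
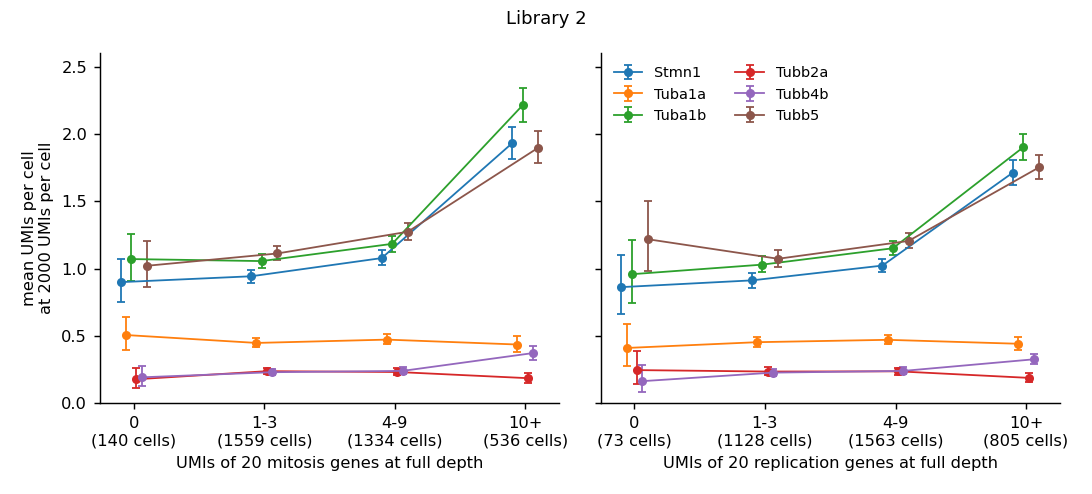
Mean UMIs per cell (y axis, linear, thinned to 2000 UMIs per cell) of 6 members in library 2, by the number of UMIs of the 20 mitosis genes (left) and 20 replication genes (right) at full depth (x axis, with the cells of each class). Points are means and error bars exact 95% Poisson intervals. Stmn1, Tuba1b and Tubb5 reach 1.93, 2.21 and 1.90 in the highest mitosis class, while Tuba1a is at 0.437.

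Among the cells of library 2 without the proliferation genes, the presence of Stmn1 said little about the tubulins. The 639 cells with a Stmn1 UMI had 3.23 tubulin UMIs per cell and the 411 cells without had 3.005, a ratio of 1.08 (1.002 to 1.16). Tubb2a was the 1 tubulin whose interval left out 1 there (1.36, 1.04 to 1.79), and in library 3 it did not (0.943, 0.762 to 1.16). The summed mitosis genes measured 0.828 and 0.844 in the cells of library 2 with and without Stmn1. Between pairs of members, Pearson correlations of log2(UMIs + 1) across these cells ran from -0.05 to 0.08 in library 2 and from -0.03 to 0.06 in library 3. All points share a library and a depth, and values of this size in sparse counts are no finding. The genes most like Stmn1 across these cells had correlations as weak, led by Fuca2 (0.113), P2rx4 (0.105), Vamp5 (0.102), Ddx41 (0.0924) and Mtdh (0.0895) in library 2 and by Nutf2 (0.0663), Cct7 (0.0603), Mcrs1 (0.0597), Celf2 (0.0588) and Trim44 (0.0580) in library 3. Those most like the summed tubulins were Nfkbil1 (0.132), Snrnp27 (0.106), Mthfd2 (0.1005), Fchsd2 (0.1004) and Pim1 (0.10001) in library 2 and Hspa8 (0.0697), Ggnbp2 (0.0691), Set (0.0657), Luc7l2 (0.0616) and Cycs (0.0594) in library 3. The libraries had none of these in common.

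The promoters of the members were compared for 2 motifs. CCAAT, searched on both strands, is bound by the factor NF-Y, and TTTGAA, also searched on both strands, is the usual form of the CHR element, which the DREAM and MuvB complexes bind in many genes of the late cell cycle. The RefSeq table (GRCm38.p6) held promoters of 6 members and none for Stmn1 and Tubb6. In the 250 bases before the start of transcription, 33.8% of all 32851 promoters held CCAAT, 16.0% TTTGAA and 5.55% both. GGGCGG, in 32.7% of all promoters, was found in Tuba1a, Tuba1b, Tubb2a and Tubb4b. TATAAA, in 12.4%, was found in Tubb2a alone among the 6. Shown 5′ to 3′ on the gene's strand are Tubb4b and Tubb5, which were higher in library 2 than in library 3, and Tubb2a, which was lower. CCAAT and TTTGAA are in capitals.
Tubb4b promoter, chr2:25224703-25224952, strand -: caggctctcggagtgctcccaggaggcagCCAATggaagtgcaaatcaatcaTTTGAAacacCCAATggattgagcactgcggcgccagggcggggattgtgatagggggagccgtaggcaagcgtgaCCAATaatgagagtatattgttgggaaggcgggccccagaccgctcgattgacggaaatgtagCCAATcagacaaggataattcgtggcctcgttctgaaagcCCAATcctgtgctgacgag
Tubb5 promoter, chr17:35838302-35838551, strand -: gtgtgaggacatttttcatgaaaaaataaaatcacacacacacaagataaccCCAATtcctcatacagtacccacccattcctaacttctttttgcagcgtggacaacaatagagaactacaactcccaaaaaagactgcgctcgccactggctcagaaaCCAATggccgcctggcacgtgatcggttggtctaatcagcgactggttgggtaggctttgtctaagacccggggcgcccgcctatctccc
Tubb2a promoter, chr13:34078009-34078258, strand -: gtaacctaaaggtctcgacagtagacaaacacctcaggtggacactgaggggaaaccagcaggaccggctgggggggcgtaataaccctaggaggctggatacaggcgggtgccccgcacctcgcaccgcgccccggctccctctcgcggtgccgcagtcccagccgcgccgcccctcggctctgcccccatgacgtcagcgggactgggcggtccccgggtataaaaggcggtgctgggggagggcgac
Tubb4b held 5 CCAAT motifs, where 0.213% of all promoters held at least 5, and 1 TTTGAA motif 198 bases before the start. The CCAAT motifs began 221, 188, 122, 59 and 19 bases before the start. Tubb5 held 2 CCAAT motifs, at 198 and 90 bases, Tuba1a and Tuba1c 1 each, at 176 and 151 bases, and Tuba1b and Tubb2a none. TTTGAA was not among the letters of the other 5 promoters. Of the members whose promoters are not shown, Tuba1b, without CCAAT or TTTGAA, was higher in library 2 than in library 3. Tuba1a, with 1 CCAAT motif, was lower. All distances are from the RefSeq start. The promoters of Tuba1a (chr15:98953502-98953751) and Tuba1b (chr15:98934391-98934640) lie partly inside the GENCODE genes given above. The CCAAT motif of Tuba1a falls inside that gene, so it lies before the start in RefSeq alone. The part of any of these motifs in these levels was not tested. A match of letters is a description and not a binding site.

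Other genes of the microtubule system were read from a list of 66. Of these, 20, 18 and 18 reached 50 CPM for libraries 2 over 1, 3 over 1 and 2 over 3 in cells without the proliferation genes, and 0 were past 2-fold in any pair. Over all genes in these cells 0.645% to 4.36% were called in a given direction, so a count of 0 among 18 or 20 genes lies near that background and is no result about the list. The median log2 ratios of the list were -0.04, -0.06 and 0.11, against -0.05, -0.05 and 0.03 over all genes counted. The other genes of the list were below 50 CPM in both libraries of a pair and were not counted. Among them Fignl1, related to microtubule-severing enzymes, had 2, 34 and 50 UMIs, and its level in library 2 was 6.52 times that in library 1 and 2.02 times that in library 3. Tbcd and Ttll12, with 1 UMI each in library 1, had ratios of library 2 to library 1 of 6.91 and 6.14. Ratios that rest on so few UMIs are no finding. In all cells 1 of the 19 genes counted was past 2-fold, Ttc5, lower in library 2 than in library 1. Over all 3667 genes counted there, 3.35% were lower, so this call is no result about the list. In cells without the proliferation genes Ttc5 reached 50 CPM in library 1 alone (59.6 CPM, against 34.3 and 31.2). It could thus not be called higher in library 2 in those cells, where its ratio to library 1 was 0.576. The 3 highest genes of the list were Dynll1, a light chain of dynein and other complexes, at 238, 439 and 388 CPM, Mapre1, which tracks growing microtubule ends, at 194, 167 and 172 CPM, and Map1lc3b, an autophagy protein first found on microtubules, at 161, 153 and 158 CPM. The other stathmins were nearly silent, with 1, 0 and 0 UMIs of Stmn2, 0, 4 and 1 of Stmn3 and 0, 2 and 2 of Stmn4. The neuronal beta tubulin Tubb3 had 0, 0 and 1 UMIs, and Tubb1, Tuba8, Tubal3, Tuba3a and Tuba3b had none in any of these cells. Markers of neurons summed to 11.2, 4.29 and 2.72 CPM in the same cells, and Rbfox3 and Syt1 were at 0 in libraries 1 and 2. Astrocyte markers summed to 151, 113 and 107 CPM, mostly Slc1a3, with Aqp4 at 0 throughout, oligodendrocyte markers to 76.9, 66.7 and 75.8 CPM, endothelial markers to 26.1, 22.9 and 20.6 CPM, monocyte and border macrophage markers to 3.72, 1.90 and 1.76 CPM, and red cell markers to 0, 6.67 and 4.16 CPM. The part of such cells or their RNA in the levels of the members was not tested.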

How the data were processed

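YFP (+) lumbar cord cells were sequenced with droplet-based 3′ libraries, 1 per group and 3 in all (kit v3.1 per the labels, v3 per the methods). The authors deposited 1 matrix of UMI counts per gene and cell, without normalization, for 27998 genes and 7522 cells, with the library given by the barcode suffix. Cell Ranger 2.1.1 and mm10 are named in the submitters' processing notes without a role. The rule that called cells and the counting of reads that match more than 1 gene are not given in the sources consulted, and kept multiple matches would raise near-identical isotypes together. Every deposited barcode was used and no doublet caller was run.

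The 8 members and the gene lists were chosen with earlier results of these data known. Cells were thinned to 2000 UMIs without replacement (seed 1), UMIs were averaged per library, and genes of at least 50 CPM in either library were called past 2-fold. With 1 library per group no test was made and no p-value is given. The 3 proliferation genes and the 20 mitosis and 20 replication genes were read at full depth, since thinning hides transcripts. Named genes were the members, genes of the microtubule list past 2-fold in cells without the 3 genes with its 3 highest, and the 5 genes most like Stmn1 and the summed tubulins in libraries 2 and 3, among genes found in at least 5% of cells. Of 67 symbols in the microtubule list 66 were found. Birc5, Tk1, 2810417H13Rik, Spc24, Ttc5, Tubb2b, Fignl1, Tbcd, Ttll12 and the silent stathmins and tubulins were named after their values were seen. A floor of 3 counts was fixed for counts of 0. The calling step was tested on simulated libraries, but the outcome is not given here and nothing is drawn from it. Gene positions and coding bases came from GENCODE M21 (27645 of 27998 identifiers matched) and promoters from RefSeq. Alternatives were thinning to 1000 or 4000 UMIs or none, another seed (2), a cell filter (200 genes, 500 UMIs, 10% mitochondrial), leaving out the deepest 5% of cells, median-of-ratios scaling, a fold of 1.5, stricter gates, at least 2 UMIs, and classes read after thinning. Cells of 2000 to 4000 UMIs, cells without the mitosis genes and the 3 genes read after thinning were added after seeing the data. The tools used were pandas 2.3.3, numpy 2.4.6, scipy 1.17.1 and matplotlib 3.10.9 under Python 3.11.15, and Biopython 1.88.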

Additional observations from a re-analysis of the deposited data

How the results depend on the processing

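No paired analysis was possible because each group is 1 library, and leaving out a replicate would leave none. Of 588 recomputed values, 458 stayed within the counting interval or within 1.5 times the count, 124 moved, and 6 that differed by at least 2-fold as reported turned in direction. Those 6 came from thinning to 4000 UMIs, which leaves 9 cells of library 1 (8 without the 3 proliferation genes). There the log2 ratio of Tuba1c to library 1 was -0.88 for library 2 and -1.27 for library 3 over all cells (1.61 and 1.34 as reported), and -0.68 and -0.43 without the proliferation genes (1.40 and 1.36). For Tubb4b in library 3 over library 1 it was -0.27 over all cells (1.29) and -0.43 without those genes (1.34).

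The log2 ratio of Stmn1 in library 2 over 3 in cells without the proliferation genes, 2.99 as reported, was 2.79 without thinning, 2.81 with another seed, 2.81 in cells of 2000 to 4000 UMIs and 2.75 without any mitosis or replication gene. All of these lay below the counting interval of the reported ratio. That interval was taken on the counts of 1 draw and did not hold these alternatives. The members past 2-fold in library 3 over 1, 2 as reported in either set of cells, were 1 in cells of 2000 to 4000 UMIs in both sets and 1 without any mitosis or replication gene. In library 2 over 3, where the 1 reported is Stmn1, a fold of 1.5 gave 5 over all cells (Stmn1, Tuba1b, Tubb4b and Tubb5 higher, Tuba1a lower) and 2 without the proliferation genes (Stmn1 higher, Tuba1a lower). Without any mitosis or replication gene there were 4 (Stmn1 and Tubb5 higher, Tuba1a and Tubb2a lower), from 9 cells of library 2. For these changes beyond the loss of cells and the lower fold, the cause was not tested. The shares of all genes called under these alternatives are not given here, so the counts of members are no result about them as a set. Of 448 recomputed ratios of single members, 27 changed sign, the 6 above among them, and Tubb2a, Tuba1c and Tubb6 gave most. For library 3 over 1 over all cells, thinning to 4000 UMIs also turned Stmn1 (0.65 to -1.25) and Tubb5 (0.57 to -0.31), and cells of 2000 to 4000 UMIs turned Tuba1b (0.21 to -0.12, and 0.18 to -0.15 without the proliferation genes). For library 2 over 1 without those genes, Tuba1a turned (0.58 to -0.73) where no mitosis or replication gene was found and Tubb6 (0.62 to -2.03) in cells of 2000 to 4000 UMIs. In library 2, reading the classes after thinning moved Tuba1a in 10 or more over 1 to 3 mitosis UMIs to -2.27, from 3 UMIs. The small number of cells and depth of library 1 limit every ratio to it.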
